A study of Rattus norvegicus with 26 samples.

Results

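The genes described here are *Foxj1*, the Rfx transcription factors and genes of the cilium. They were taken by name from the array annotation: gene names that begin with Dnah, Dnai, Dnal, Tekt, Ift, Bbs, Rsph, Spag, Rfx or Nphp (for some of these followed by a digit), and *Foxj1*, *Hydin*, *Pkd1*, *Arl13b*, *Kif3a* and *Kif3b*. This gave 63 genes measured by 91 probes, among 35287 different gene names on the array. Where a gene had several probes, 1 was chosen by its brightness, as the probe with the highest mean log2 intensity over 26 arrays. *Foxj1* itself was selected on its increase during differentiation, already known from these arrays, so its own values are described without a test and are left out of all counts, which cover the 62 other genes. The question was whether these genes followed *Foxj1* over the days of differentiation in each line.

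rMAPCs are rat multipotent adult progenitor cells derived from bone marrow, and both lines used here, Cl19 and 3c3, are *Oct4*-expressing clones of female Fischer rats. The labels give the age as 3 week for Cl19 (written Cl-19 there) and as E18 for 3c3. For differentiation, cells of both lines were plated in basal rMAPC medium with TGFβ and PDGF-BB, by the study's methods without serum unless otherwise specified. RNA was taken on d0, from undifferentiated cells, and on d2, d4 and d6, as 3 arrays per line and day. No untreated cultures of d2, d4 or d6 were measured. In a change from d0, the added factors, the plating and medium, and the time in culture thus cannot be told apart. Another 2 arrays (Prim) measured commercially obtained RNA that the labels call rat aortic and the study's methods call primary smooth muscle. Each line is a single clone. The study's methods call the 3 arrays of a time point biological replicates, though the labels do not say whether they came from separate cultures. The p-values thus measure the spread between these arrays, part of which may be technical, and not a spread between clones.

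Cilia are microtubule-based projections of the cell surface. Most cells can form a single non-motile primary cilium, whereas motile cilia and sperm flagella carry in addition dynein arms, tektin filaments, radial spokes and a central pair of microtubules that make them beat. Intraflagellar transport particles, driven outward by kinesin-II, build and maintain both kinds, the BBSome sorts their membrane proteins, and nephronophthisis proteins guard the transition zone at their base. FOXJ1 is the forkhead factor known for driving motile cilium genes, and several RFX factors bind X-box motifs of ciliary genes and act beside it.

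On the arrays 43.2 to 61.4% of gene features were well above background, a call of the scanner software. Each of 6 slides carried d0, d2, d4 and d6 of the same replicate and line, always at positions 1, 2, 3 and 4. A difference between days thus cannot be told apart from the position on the slide. The Prim arrays were on another slide. Each of 3 scan days held a single line or the Prim arrays, so that a difference in level between the lines cannot be told apart from the scan day. Background was raised on the slide of 3c3 replicate 3, where negative control features had a mean raw signal of 62.6 to 82.0, against 44.9 to 50.04 on the 6 other slides. The lowest signal well above background (log2, quantile-normalized) was 3.15 on d0 and 4.20 on d6 of that slide. On the d6 arrays of 3c3 replicates 1 and 2 it was 2.21 and 2.07. The array of Cl19 d2 replicate 1 stood apart from the other arrays of its group, and results on Cl19 d2 are given with and without it. Markers of the labeled cells were present: 7 of 8 rMAPC markers passed the filter described below, of which 5 fell and 1 rose by d6 in Cl19 and 4 fell and 1 rose in 3c3. Of 11 smooth muscle markers measured, 7 rose in Cl19, 8 rose and 1 fell in 3c3, and 11 were well above background on both Prim arrays.

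All levels below are quantile-normalized log2 intensities. *Foxj1* was well above background on each of the 24 rMAPC arrays. In Cl19 its level was 4.79, 4.54 and 4.74 on d0, 6.10, 9.24 and 10.99 on d2, 11.42, 13.18 and 12.86 on d4, and 13.99, 13.55 and 13.01 on d6. In 3c3 it was 3.61, 3.38 and 3.55 on d0, 6.68, 5.86 and 6.31 on d2, 8.16, 6.30 and 8.21 on d4, and 11.08, 8.59 and 10.14 on d6. Every d6 array was above every d0 array in both lines, and the means on d6 were 454-fold the d0 mean in Cl19 and 86.1-fold in 3c3, which is given as a description. On these arrays of whole cultures, a change in the share of cells that express a gene and a change in the level per cell cannot be told apart. The lowest d2 array of Cl19 is replicate 1, whose level of 6.10 lay inside the range of the 3c3 d2 arrays.

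**Figure D1:**
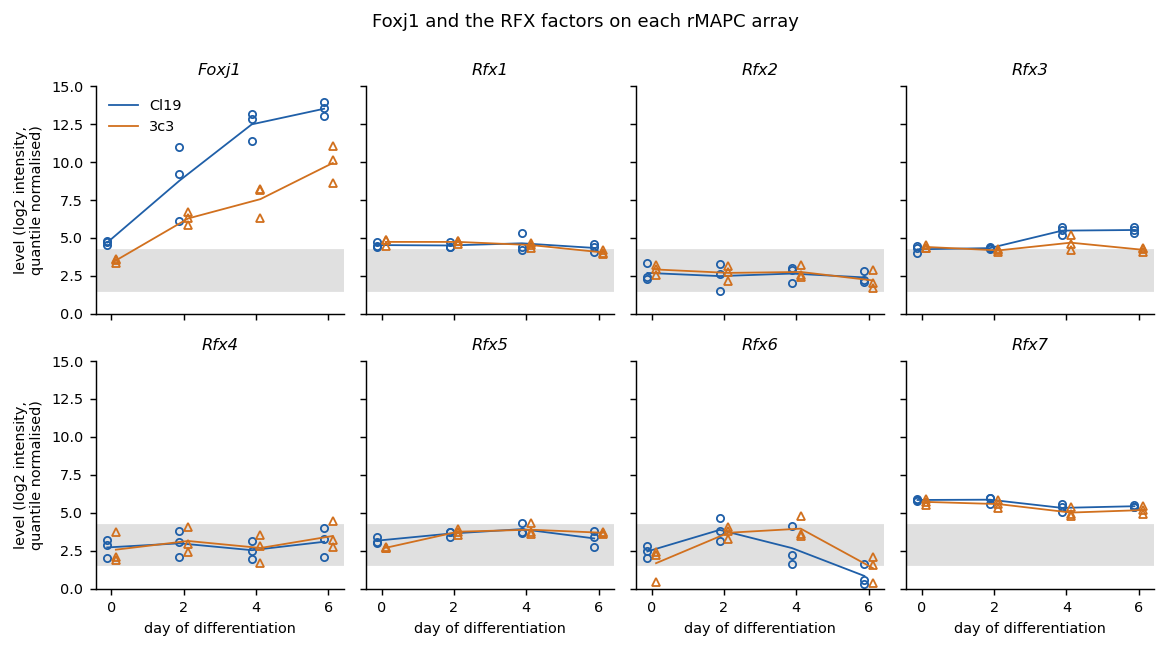
Levels of *Foxj1* and of 7 Rfx genes (y axis, quantile-normalized log2 intensity) on d0, d2, d4 and d6 (x axis) in Cl19 (circles) and 3c3 (triangles). Each symbol is an array, lines join the means of 3 arrays, and the gray band spans the lowest signals well above background over the 26 arrays, 1.52 to 4.20. *Foxj1* climbs in both lines, *Rfx3* is high on d4 and d6 in Cl19 and back at its d0 level by d6 in 3c3, and *Rfx6* has its highest mean on d2 in Cl19 and on d4 in 3c3.

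A gene was tested where all arrays of some group called its probe well above background. Of the 62 genes 42 passed this filter, and 24 were well above background on all 24 rMAPC arrays. Of the 20 that did not pass, 14 were well above background on no rMAPC array. By the F-test over the 4 days, 25 of the 42 changed in Cl19, where 54.3% of all 24442 tested probes did, and 22 changed in 3c3, where 50% of all tested probes did. On d6, 15 of the 42 were higher than on d0 in Cl19 (22.0% of all tested probes) and 10 were lower (30.3%). In 3c3, 4 were higher (19.7%) and 13 were lower (28.6%). The share that was higher was thus 35.7% in Cl19 and 9.52% in 3c3, on either side of the share over all probes. On the authors' log2 values without normalization between arrays, Cl19 had 21 higher and 8 lower genes and 3c3 had 6 and 7. The median changes over all tested probes were 0.10 and 0.09 on those values, for which shares of all probes called are not given here. Further values are again those after quantile normalization. The median change from d0 to d6 was 0.19 over the 42 genes in Cl19 and -0.42 in 3c3, beside -0.20 and -0.21 over all tested probes.

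Some genes, such as *Dnai1*, *Spag8* and *Dnali1*, passed the filter only through days on which they were bright, so the counts over the 42 describe those genes and not all 62. In a fit of all 41012 probes without the filter, 14 of the 62 were higher on d6 in Cl19 (13.0% of all probes), 9 were lower there (17.7%), 4 were higher in 3c3 (11.5%) and 12 were lower in 3c3 (16.4%). Only *Dnai1* and *Spag8* were higher past the threshold in both lines, and 7 genes were lower in both, among them *Bbs12*, *Bbs1*, *Spag4*, *Spag5*, *Dnah17* and *Ift74*. *Ift122* passed the threshold in opposite directions, though its fall in 3c3 was lost under some alternatives given below, and 10 of the 42 passed it in neither line. Shares of all tested probes for these counts over both lines are not given here, so the counts are a description only.

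**Figure D2:**
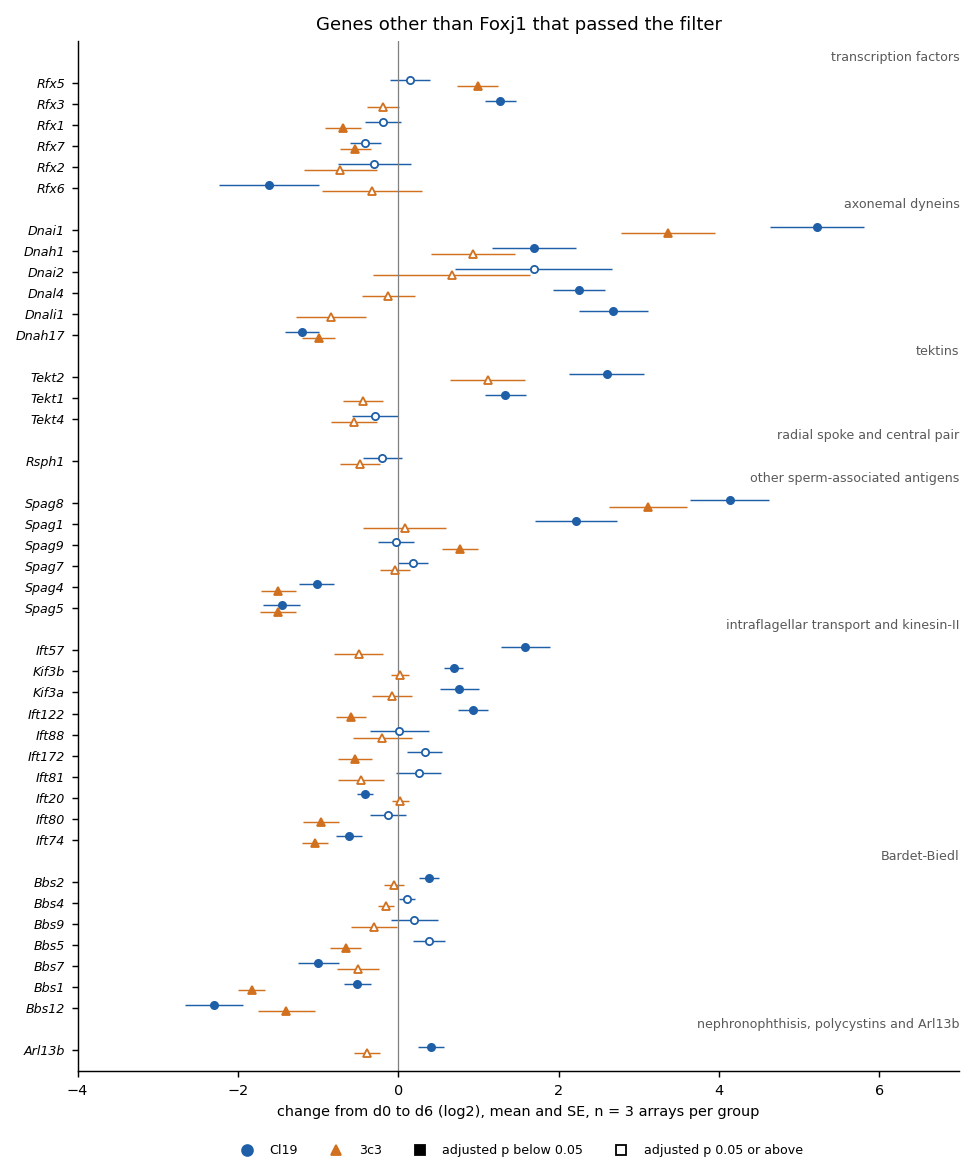
Change from d0 to d6 (x axis, log2, with SE, 3 arrays per group) of the tested genes other than *Foxj1* that are reported here (y axis, by role) in Cl19 (circles) and 3c3 (triangles). Filled symbols have an adjusted p below 0.05. Axonemal dynein and tektin genes and *Spag8* have the largest increases, mostly in Cl19, while the transport and Bardet-Biedl genes of 3c3 lie mostly below 0.

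**Figure D3:**
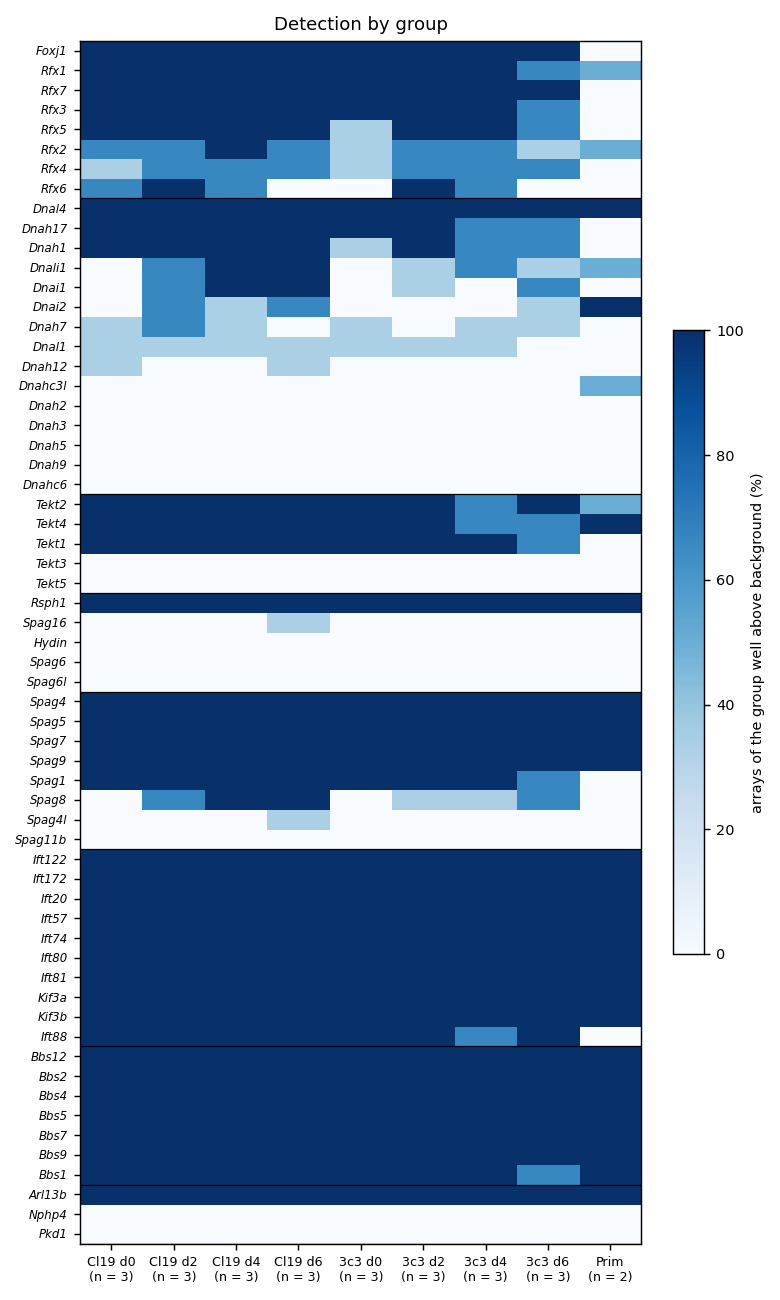
Share of the arrays of each group (x axis, with the number of arrays) on which each gene reported here (y axis, by role, *Foxj1* on top) was well above background. Transport, kinesin-II and Bardet-Biedl genes were detected nearly everywhere, while 6 of the 15 axonemal dynein genes were detected on no rMAPC array.

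Among the 6 tested Rfx factors, only *Rfx3* had a d6 change that differed between the lines past the threshold. For the other tested factors limma's test of that difference gave adjusted p-values of 0.13 (*Rfx5*), 0.40 (*Rfx6*), 0.34 (*Rfx1*), 0.86 (*Rfx7*) and 0.78 (*Rfx2*). *Rfx3*, a factor of ciliary genes, had levels of 4.44, 4.32 and 3.99 on d0 and of 5.54, 5.71 and 5.31 on d6 in Cl19, and the increase of 1.27 (SE 0.20, adjusted p = 1.9e-05) was already present on d4. In 3c3 the d6 levels of 4.25, 4.34 and 4.06 overlapped those of d0 (4.36, 4.33 and 4.52), and the change was -0.19 (SE 0.20, adjusted p = 0.46). *Rfx3* therefore rose in Cl19 and showed no change past the threshold in 3c3, and the difference between the lines, 1.46 (SE 0.28, adjusted p = 0.00084), passed the test.

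*Rfx5*, known as a regulator of MHC class II genes, rose in 3c3 from 2.66, 2.72 and 2.68 to 3.62, 3.66 and 3.75. The rise was an estimated 1.78-fold (adjusted p = 0.0033), with 1 of 3 d0 arrays and 2 of 3 d6 arrays well above background. The dim d6 array was that of replicate 3, on the slide with raised background. Under normexp background correction (offset 50) the change was 0.084 with an adjusted p of 0.22. Its change in Cl19 was 0.15 (SE 0.25, adjusted p = 0.67). *Rfx6*, known from pancreatic islet development, was brightest in mean on d2 in Cl19 and on d4 in 3c3. In Cl19 its levels were 2.04, 2.48 and 2.82 on d0 and 1.61, 0.32 and 0.57 on d6. Well above background were 2 of 3 d0 arrays and 0 of 3 d6 arrays, and the estimated difference of 1.43-fold had an adjusted p of 0.035. That call was lost without the filter (adjusted p = 0.060), under normexp (-0.12, adjusted p = 0.29), with dim values set to a floor (-0.74, adjusted p = 0.29), by the methods' t-test (adjusted p = 0.051) and without Cl19 replicate 2 (adjusted p = 0.20) or 3 (adjusted p = 0.18). In 3c3 *Rfx6* was well above background on 0 of 3 arrays on d0 and on d6, and its calls from d0 to d2 and from d4 to d6 were both lost with the floor and under normexp. *Rfx1*, a widely expressed family member, was lower on d6 in 3c3 at least 1.55-fold (adjusted p = 0.015), a call that was lost on the authors' log2 values (-0.28, adjusted p = 0.22) and without 3c3 replicate 1 (adjusted p = 0.075) or 3 (adjusted p = 0.13). *Rfx7* changed by -0.54 there (SE 0.19, adjusted p = 0.026) and missed the threshold under 75th percentile scaling (adjusted p = 0.068), on the log2 values (-0.15, adjusted p = 0.68), in a fit per line (adjusted p = 0.067), by the methods' t-test (adjusted p = 0.11) and in 3 of the fits without a replicate, with adjusted p-values up to 0.15. In Cl19 the changes of *Rfx1* and *Rfx7* were -0.19 (SE 0.22, adjusted p = 0.51) and -0.41 (SE 0.19, adjusted p = 0.080), the latter with an adjusted p of 0.024 with the slide of a replicate as a block. *Rfx2*, which acts in ciliated tissues and testis, stayed near background and changed by -0.30 (SE 0.45, adjusted p = 0.62) in Cl19 and by -0.72 (SE 0.45, adjusted p = 0.20) in 3c3. *Rfx4* did not pass the filter, being well above background on 1 or 2 of 3 arrays in every rMAPC group.

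Of the 15 axonemal dynein genes 6 passed the filter, of which 4 rose and 1 fell in Cl19, beside 22.0 and 30.3% of all tested probes, and 1 rose and 1 fell in 3c3, beside 19.7 and 28.6%. *Dnai1*, an intermediate chain of the outer dynein arm (probe on rn4 at chr5:59054173-59054232), was on no d0 array well above background. In Cl19 its level was 1.72, 0.80 and 0.68 on d0, 2.28, 3.50 and 4.03 on d2, 3.95, 6.19 and 4.79 on d4, and 6.59, 5.44 and 6.85 on d6. In 3c3 it was 0.26, 0.95 and 0.34 on d0, 2.01, 2.52 and 2.93 on d2, 2.19, 1.16 and 0.27 on d4, and 4.72, 3.32 and 3.60 on d6. No d6 array overlapped a d0 array in either line, and in 3c3 1 of 3 arrays of d2 and 0 of 3 of d4 were well above background. The rise to d6 was at least 15.3-fold in Cl19 (adjusted p = 3.7e-07), with 3 of 3 d6 arrays well above background. In 3c3 it was an estimated 2.32-fold (adjusted p = 9.5e-05), with 2 of 3, the dim array being that of replicate 3, on the slide with raised background. Under normexp the 3c3 change was 0.39 with an adjusted p of 0.066.

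*Dnali1*, a light intermediate chain of inner arm dyneins, rose in Cl19 from 1.54, 1.19 and 1.69 to 4.53, 4.36 and 3.57, at least 3.47-fold (adjusted p = 3.1e-05). In 3c3 its d6 levels of 2.29, 0.57 and 0.21 overlapped those of d0 (1.79, 1.53 and 2.27), and 1 of 3 d6 arrays was well above background. A second *Dnali1* probe gave changes of 2.81 in Cl19 (adjusted p = 0.0021) and -1.04 in 3c3 (adjusted p = 0.24). *Dnal4*, a dynein light chain that was bright on every array, rose in Cl19 from 7.39, 7.05 and 7.52 to 9.60, 9.42 and 9.71, which is 4.77-fold (adjusted p = 9.1e-06). In 3c3 *Dnal4* changed by -0.12 (SE 0.33, adjusted p = 0.79), and its second probe gave 2.16 in Cl19 (adjusted p = 8.7e-06) and 0.09 in 3c3 (adjusted p = 0.83). Both probes of both genes thus had the same pattern, a rise in Cl19 with no rise past the threshold in 3c3.

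*Dnah1*, a heavy chain of inner arms, was called higher on d2 than on d0 in both lines. In Cl19 it was 3.18, 3.11 and 3.44 on d0, 4.44, 5.75 and 6.33 on d2 and 4.58, 4.92 and 5.29 on d6, 3.22-fold above d0 (adjusted p = 0.010). Its d2 and d6 arrays overlapped in Cl19, and by limma it was called lower neither from d2 to d4 nor from d4 to d6 there. A second, dimmer *Dnah1* probe changed by -0.05 (adjusted p = 0.95) there. In 3c3 *Dnah1* rose by 1.83 (SE 0.52, adjusted p = 0.018) to d2 and fell by 1.97 (SE 0.52, adjusted p = 0.025) to d4, and both calls were lost under normexp, in a fit per line, as the mean over its probes and without 3c3 replicate 2. *Dnah17*, a heavy chain known from sperm flagella, fell in both lines, from 5.29, 5.15 and 5.16 to 4.18, 3.86 and 3.96 in Cl19 (2.30-fold, adjusted p = 7.7e-05) and at least 1.80-fold in 3c3 (adjusted p = 0.00064, but -0.14 with 0.14 under normexp and 0.066 by the methods' t-test). A second, dimmer *Dnah17* probe changed by -0.79 in Cl19 without passing the threshold (adjusted p = 0.16) and by -1.77 in 3c3 (adjusted p = 0.0032). *Dnai2*, the partner of *Dnai1* in the outer arm, passed the filter only through the Prim arrays and was scattered in rMAPCs, with d6 levels of 0.28, 3.70 and 3.47 in Cl19 and 4.19, 0.26 and 0.28 in 3c3, and its changes did not pass the threshold (adjusted p = 0.16 and 0.61). The outer arm heavy chains *Dnah5* and *Dnah9*, and *Dnah2*, *Dnah3*, *Dnahc3l* and *Dnahc6* (*Dnah6* in RefSeq), were on no rMAPC array well above background. *Dnah7*, *Dnah12* and *Dnal1* were so on some arrays of several groups and did not pass the filter.

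Tektins are filament proteins of the doublet microtubules, and 3 of 5 passed the filter, of which 2 rose in Cl19, beside 22.0% of all tested probes. In 3c3 none of the 3 passed the threshold by limma's adjusted p, where 19.7% of all tested probes rose and 28.6% fell. *Tekt2* rose in Cl19 from 4.01, 4.42 and 4.36 to 7.35, 6.99 and 6.25, which is 6.06-fold (adjusted p = 0.00011). Its 3c3 arrays were 3.42, 3.73 and 3.43 on d0 and 5.17, 4.46 and 4.30 on d6, without overlap, and the change of 1.11 (SE 0.47) had an adjusted p of 0.058, which became 0.032 with the slide as a block. *Tekt1* rose in Cl19 from 4.64, 4.55 and 4.64 to 6.33, 5.74 and 5.76 (2.52-fold, adjusted p = 0.00017), with most of the increase between d4 and d6. In 3c3 *Tekt1* was 4.23, 4.62 and 4.47 on d0 and 4.39, 3.56 and 4.05 on d6, a change of -0.44 (SE 0.25, adjusted p = 0.16). The *Tekt1* arrays of the lines did not overlap on d6. *Tekt4* changed by -0.29 (SE 0.29, adjusted p = 0.42) in Cl19 and by -0.55 (SE 0.29, adjusted p = 0.12) in 3c3, the latter with an adjusted p of 0.017 under the slide block. *Tekt3* and *Tekt5* were not detected in rMAPCs.

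Of 5 genes of the radial spoke and central pair only *Rsph1*, a radial spoke head protein, passed the filter, and its changes of -0.20 (SE 0.25, adjusted p = 0.53) in Cl19 and -0.48 (SE 0.25, adjusted p = 0.12) in 3c3 did not pass the threshold. *Hydin*, *Spag6* and *Spag6l*, central pair genes, were on no rMAPC array well above background, and *Spag16* was on 1.

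Among the 8 other sperm-associated antigens, a name that covers proteins of different function, 6 passed the filter. *Spag8*, known from male germ cells (probe on rn4 at chr5:60129160-60129219), was on no d0 array well above background. In Cl19 it was 0.93, 0.58 and 2.51 on d0, 2.11, 2.47 and 3.51 on d2, 4.36, 4.12 and 4.77 on d4, and 6.11, 5.18 and 5.14 on d6. In 3c3 it was 0.67, 0.65 and 0.99 on d0, 2.15, 2.07 and 3.55 on d2, 1.71, 2.93 and 3.11 on d4, and 3.54, 4.10 and 4.01 on d6. All d6 arrays lay above all d0 arrays in each line. The rise was at least 7.99-fold in Cl19 (adjusted p = 8.6e-07), with 3 of 3 d6 arrays well above background. In 3c3 it was an estimated 2.32-fold (adjusted p = 3.6e-05), with 2 of 3. The dim d6 array was that of replicate 3, on the slide with raised background.

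*Spag1*, a factor for the assembly of dynein arms in the cytoplasm, rose 4.64-fold in Cl19, from 4.69, 4.01 and 4.62 to 6.90, 6.65 and 6.42 (adjusted p = 0.0012). In 3c3 its d6 levels of 5.01, 3.71 and 4.20 overlapped those of d0 (4.20, 4.37 and 4.11). *Spag9*, a scaffold of JNK signaling, rose in 3c3 only by its own test, by 0.77 (SE 0.22, adjusted p = 0.0071), and changed by -0.03 (SE 0.22, adjusted p = 0.93) in Cl19. The difference of these changes, -0.80 (SE 0.31, adjusted p = 0.091), did not pass the threshold. *Spag4*, a SUN domain protein of spermatids, fell in both lines, 2.03-fold in Cl19 (adjusted p = 0.00052) and 2.82-fold in 3c3 (adjusted p = 1.3e-05). The fall of *Spag4* was larger on d2, by 2.19 (SE 0.22, adjusted p = 4.8e-07) in Cl19 and by 1.98 (SE 0.22, adjusted p = 1.9e-06) in 3c3. *Spag5*, which encodes a protein of the mitotic spindle, fell 2.74-fold in Cl19 and 2.83-fold in 3c3 (adjusted p = 2.2e-05 in both). *Spag7* changed past the threshold in neither line, and *Spag4l* (*Sun5* in RefSeq) and *Spag11b* did not pass the filter. All 7 measured markers of dividing cells fell in both lines too, with a mean level of 12 to 12.24 on d0 and 9.82 to 11.34 on d6 in Cl19 and of 12.11 to 12.41 and 10.17 to 10.83 in 3c3; their part in the fall of *Spag5* was not tested.

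**Figure D4:**
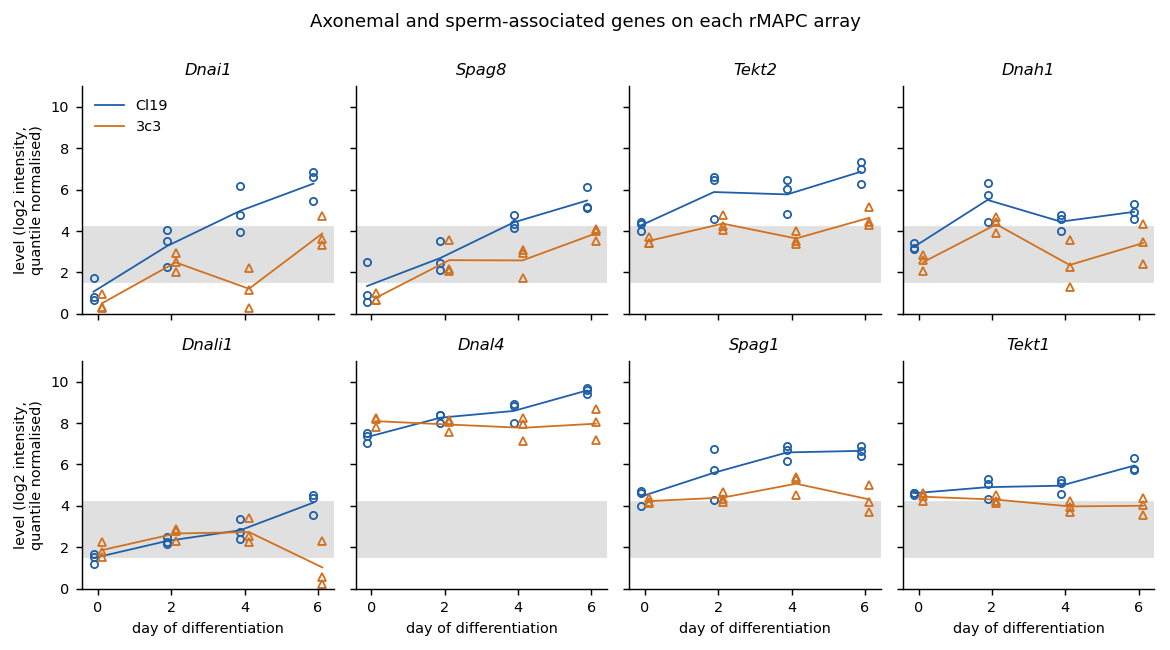
Levels (y axis, quantile-normalized log2 intensity) of 8 axonemal and sperm-associated genes on d0, d2, d4 and d6 (x axis) in Cl19 (circles) and 3c3 (triangles), with lines through the means of 3 arrays and a gray band for the lowest signals well above background, 1.52 to 4.20. *Dnai1* and *Spag8* climb out of the band in Cl19 and reach about its upper edge in 3c3, whereas *Dnal4*, *Spag1* and *Tekt1* separate the lines by d6.

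The stretch upstream of the start site was available for 48 of the 63 genes in RefSeq (GRCr8), though not for *Foxj1*. Shown are the 250 bases before the start site, 5′ to 3′ on the gene's strand, of 6 genes that rose in Cl19. They are *Dnai1* and *Spag8*, which rose in both lines, and 4 others picked from those that hold at least 1 of the motifs searched. *Kif3a*, which rose in Cl19 and holds 2 GTTGCC matches, is not shown. Capitals mark an X-box match where there is one, and otherwise a GTTGCC or a TGTTTAC.
*Dnai1*, chr5:61525829-61526078, plus strand: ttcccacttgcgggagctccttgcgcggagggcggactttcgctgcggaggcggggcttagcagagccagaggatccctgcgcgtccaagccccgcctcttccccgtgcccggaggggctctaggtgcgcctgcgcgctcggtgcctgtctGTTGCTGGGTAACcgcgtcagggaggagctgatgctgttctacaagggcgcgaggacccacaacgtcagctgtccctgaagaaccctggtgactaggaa
*Spag8*, chr5:62699665-62699914, minus strand: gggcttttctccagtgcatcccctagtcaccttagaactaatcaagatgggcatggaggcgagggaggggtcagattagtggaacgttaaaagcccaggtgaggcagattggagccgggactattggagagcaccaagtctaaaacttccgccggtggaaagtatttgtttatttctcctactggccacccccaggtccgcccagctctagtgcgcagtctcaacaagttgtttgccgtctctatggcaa
*Tekt2*, chr5:143907725-143907974, minus strand: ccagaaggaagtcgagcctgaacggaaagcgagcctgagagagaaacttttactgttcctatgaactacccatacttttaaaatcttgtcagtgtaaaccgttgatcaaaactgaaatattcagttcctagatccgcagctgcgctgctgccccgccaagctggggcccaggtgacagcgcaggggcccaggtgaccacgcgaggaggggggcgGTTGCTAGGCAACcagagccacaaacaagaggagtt
*Tekt1*, chr10:57479122-57479371, minus strand: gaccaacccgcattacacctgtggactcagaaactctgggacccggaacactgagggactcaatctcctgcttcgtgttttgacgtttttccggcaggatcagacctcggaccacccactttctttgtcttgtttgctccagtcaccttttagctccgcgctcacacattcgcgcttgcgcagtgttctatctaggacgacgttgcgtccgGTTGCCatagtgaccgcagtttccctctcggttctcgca
*Rfx3*, chr1:235122423-235122672, minus strand: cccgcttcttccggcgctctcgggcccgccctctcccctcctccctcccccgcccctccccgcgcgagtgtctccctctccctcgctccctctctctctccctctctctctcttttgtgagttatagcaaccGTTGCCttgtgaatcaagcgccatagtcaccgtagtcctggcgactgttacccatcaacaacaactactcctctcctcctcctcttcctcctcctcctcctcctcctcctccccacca
*Dnali1*, chr5:142611971-142612220, minus strand: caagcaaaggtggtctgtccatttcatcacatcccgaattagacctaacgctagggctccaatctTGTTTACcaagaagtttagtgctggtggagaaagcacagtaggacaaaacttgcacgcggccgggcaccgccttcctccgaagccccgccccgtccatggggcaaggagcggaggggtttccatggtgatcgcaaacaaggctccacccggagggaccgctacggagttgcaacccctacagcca
Both strands were searched for the X-box, for GTTGCC, which is part of many X-boxes and was counted inside them too, and for TGTTTAC, a forkhead motif. An X-box match lay upstream of 5 of the 48 genes (10.4%), *Dnai1*, *Tekt2*, *Dnai2*, *Dnah2* and *Hydin*, and upstream of 1.20% of all 33469 promoters. In *Dnai1* the match GTTACCCAGCAAC began 99 bases before the start site on the opposite strand, and in *Tekt2* the match GTTGCCTAGCAAC began 36 bases before it. Both of these genes rose in Cl19, while *Dnai2* did not pass the threshold and *Dnah2* and *Hydin* were not detected in rMAPCs. GTTGCC was found upstream of 15 of the 48 genes and in 9.89% of all promoters. TGTTTAC was found upstream of 2 of the 48 genes, *Dnali1* and *Tekt3*, and in 3.21% of all promoters. Of the 12 genes with a promoter that rose in Cl19, 2 held an X-box, 4 held GTTGCC and 1 held TGTTTAC. Over the 48 genes, 31.25% held GTTGCC. Whether the motifs go with a rise was not tested. *Spag8* holds none of these letters in this window. These are matches of letters, which say nothing of binding in these cells.

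All 10 genes of intraflagellar transport and kinesin-II passed the filter. In Cl19 4 rose and 2 fell, beside 22.0 and 30.3% of all tested probes, and in 3c3 none rose, by limma's adjusted or unadjusted p (19.7% of all tested probes did), and 4 fell (28.6%). The median change was 0.29 in Cl19 and -0.48 in 3c3, beside -0.20 and -0.21 over all tested probes. *Ift57*, a member of the outward-moving transport complex, had levels of 9.82, 9.64 and 9.92 on d0, 8.68, 9.65 and 10.26 on d2, 11.47, 11.16 and 11.85 on d4, and 11.85, 11.39 and 10.90 on d6 in Cl19, a rise of 3.00-fold by d6 (adjusted p = 0.00019). In 3c3 it was 9.92, 9.72 and 9.96 on d0, 8.50, 8.55 and 8.68 on d2, and 9.65, 8.86 and 9.60 on d6. It thus fell first in 3c3, by 1.29 (SE 0.30, adjusted p = 0.0050), and its d6 change there was -0.50 (SE 0.30, adjusted p = 0.19).

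*Ift122*, of the inward-moving complex, rose in Cl19 from 8.44, 8.15 and 8.37 to 9.26, 9.28 and 9.23 (1.91-fold, adjusted p = 0.00030) and fell in 3c3 from 8.21, 8.05 and 8.18 to 7.82, 7.12 and 7.73 (by 0.59, adjusted p = 0.014). The fall in 3c3 missed the threshold on the authors' log2 values (-0.27, adjusted p = 0.32), by the methods' t-test (adjusted p = 0.12) and without 3c3 replicate 2 (adjusted p = 0.12) or 3 (adjusted p = 0.051). A second *Ift122* probe did the same, with 0.89 in Cl19 (adjusted p = 0.00029) and -0.51 in 3c3 (adjusted p = 0.022). The kinesin-II motors rose slightly in Cl19, *Kif3b* by 1.61-fold (adjusted p = 4.8e-05) and *Kif3a* by 1.70-fold (adjusted p = 0.014), beside changes of 0.02 (SE 0.12, adjusted p = 0.91) and -0.08 (SE 0.25, adjusted p = 0.83) in 3c3. The dimmer probes of *Kif3b* gave 0.51 and 0.53 in Cl19 without passing the threshold (adjusted p = 0.54 and 0.45), and the mean over its probes gave 0.58 (adjusted p = 0.23). *Ift74* fell in both lines, from 10.00, 10.30 and 10.15 to 9.51, 9.64 and 9.45 in Cl19 (adjusted p = 0.0029, or 0.091 on the log2 values) and from 10.02, 10.19 and 9.90 to 9.02, 8.93 and 9.05 in 3c3 (adjusted p = 2.6e-05). *Ift20* fell by 0.41 (SE 0.11, adjusted p = 0.0024) in Cl19 and changed by 0.02 (SE 0.11, adjusted p = 0.88) in 3c3. The other transport genes that fell in 3c3 were *Ift80*, by 0.96 (SE 0.22, adjusted p = 0.0014), and *Ift172*, by 0.54 (SE 0.22, adjusted p = 0.046), with changes of -0.13 and 0.33 in Cl19 that did not pass the threshold (adjusted p = 0.66 and 0.22). *Ift81* and *Ift88* passed it in neither line.

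The 7 Bardet-Biedl genes passed the filter as well, of which 1 rose and 3 fell in Cl19, beside 22.0 and 30.3% of all tested probes, and 3 fell in 3c3, beside 28.6%. *Bbs12*, of the chaperonin complex that assembles the BBSome, fell in Cl19 from 6.33, 6.57 and 6.10 to 3.91, 4.45 and 3.75 (4.91-fold, adjusted p = 2.2e-05) and in 3c3 from 6.04, 6.64 and 6.03 to 5.19, 4.84 and 4.50 (2.63-fold, adjusted p = 0.0032, or 0.063 on the log2 values). *Bbs1*, a BBSome subunit, kept its level in 3c3 until d4 (5.62, 5.93 and 5.96) and was 4.25, 3.94 and 4.24 on d6, at least 3.55-fold below d0 (adjusted p = 6.5e-08). In Cl19 *Bbs1* changed by -0.51 (SE 0.17, adjusted p = 0.017), a call that was lost on the log2 values (-0.09, adjusted p = 0.72), as the mean over its probes (adjusted p = 0.26), without Cl19 replicate 3 (adjusted p = 0.26), in a fit per line (adjusted p = 0.055) and by the methods' t-test (adjusted p = 0.071). A second *Bbs1* probe gave -0.05 (adjusted p = 0.92) in Cl19 and -1.14 (adjusted p = 0.0076) in 3c3. *Bbs5*, another subunit, fell in 3c3 by 0.66 (SE 0.20, adjusted p = 0.0092, but 0.13 on the log2 values, 0.11 without 3c3 replicate 2 and 0.056 by the methods' t-test) and changed by 0.38 (SE 0.20, adjusted p = 0.11, or 0.044 with the slide as a block) in Cl19. *Bbs2* was the riser in Cl19, by 0.38 (SE 0.12, adjusted p = 0.015, but 0.077 without Cl19 replicate 1, 0.12 without Cl19 replicate 2 and 0.052 by the methods' t-test), with -0.05 (SE 0.12, adjusted p = 0.76) in 3c3. *Bbs7* fell in Cl19 by 1.00 (SE 0.26, adjusted p = 0.0029) and changed by -0.50 (SE 0.26, adjusted p = 0.12) in 3c3, and *Bbs4* and *Bbs9* passed the threshold in neither line.

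*Arl13b*, a GTPase of the ciliary membrane often used to stain cilia, went from 8.62, 8.29 and 8.42 to 9.03, 8.87 and 8.66 in Cl19, a change of 0.41 (SE 0.16, adjusted p = 0.041). That call was lost under 9 alternatives, with adjusted p-values of 0.058 without the filter, 0.099 under percentile scaling, 0.068 in a fit per line, 0.085 by the methods' t-test and 0.053 to 0.21 in 5 of the fits without a replicate. In 3c3 it went from 8.42, 8.60 and 8.73 to 8.16, 8.41 and 8.01, a change of -0.39 (SE 0.16, adjusted p = 0.053), or 0.012 with the slide as a block. A second probe gave 0.53 (adjusted p = 0.0059) and -0.41 (adjusted p = 0.029). *Pkd1* and *Nphp4* were on no rMAPC array well above background.

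**Figure D5:**
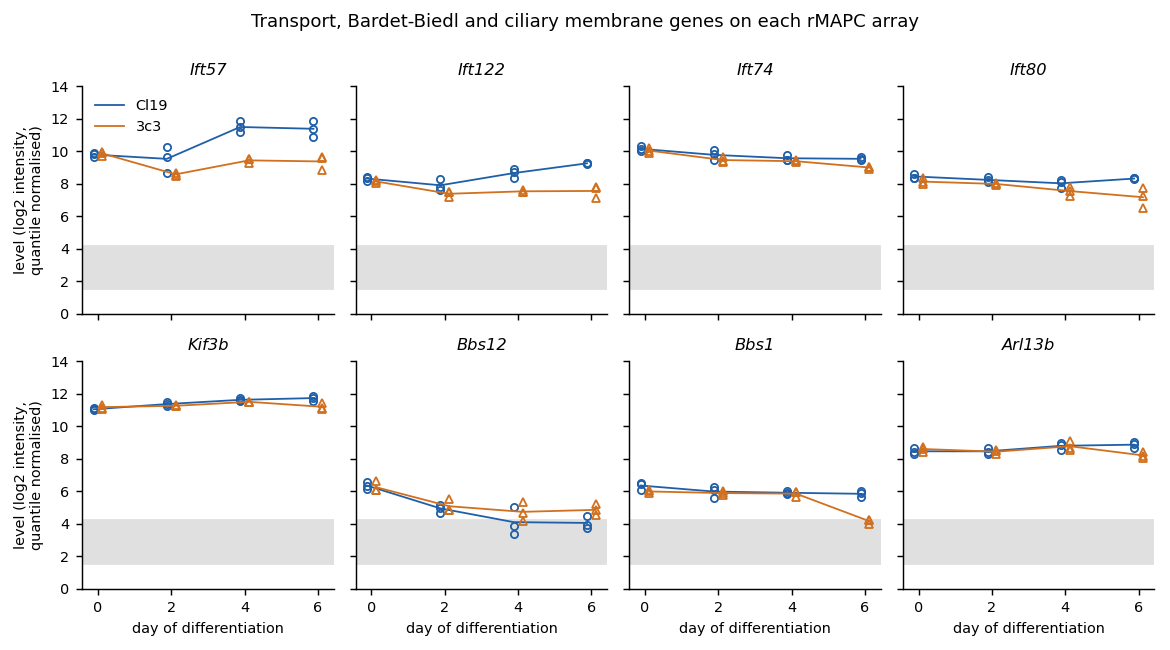
Levels (y axis, quantile-normalized log2 intensity) of *Ift57*, *Ift122*, *Ift74*, *Ift80*, *Kif3b*, *Bbs12*, *Bbs1* and *Arl13b* on d0, d2, d4 and d6 (x axis) in Cl19 (circles) and 3c3 (triangles), with lines through the means of 3 arrays and a gray band for the lowest signals well above background, 1.52 to 4.20. *Ift57* and *Ift122* part between the lines after d2, *Bbs12* falls in both, and *Bbs1* drops between d4 and d6 in 3c3.

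The difference between the lines in the change from d0 to d6 was tested directly. It passed the threshold for 12 of the 42 genes, where 17.4% of all tested probes did. In 11 of the 12 the change was higher in Cl19, whereas 1998 of all probes past the threshold were higher in Cl19 and 2265 were lower. It was found for *Dnal4* (2.38), *Spag1* (2.13), *Ift57* (2.08), *Tekt1* (1.77), *Ift122* (1.52), *Rfx3* (1.46), *Bbs1* (1.32), *Bbs5* (1.04), *Arl13b* (0.80) and *Kif3b* (0.67). For *Dnali1* it was 3.52 (SE 0.61, adjusted p = 0.00038), a value that rests on levels not well above background on most 3c3 arrays of d0 and d6, and with such levels set to a floor it was 1.61 (adjusted p = 0.11). Only *Ift20* had a lower change in Cl19, by -0.44 (SE 0.15, adjusted p = 0.048). The genes that rose in both lines, *Dnai1* and *Spag8*, had adjusted p-values of 0.14 and 0.40, but passed the threshold under normexp (0.024 and 0.019) and with the floor (0.031 and 0.044). Both genes were dim on every d0 array, and the floor differed between arrays (1.52 to 4.20). These gained calls therefore depend on how dim levels are treated. The difference of *Spag1* has an adjusted p of 0.049, and of 0.068 with the slide as a block.

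Likeness to *Foxj1* was measured as Pearson's r over the 12 arrays of each line, which share days and slides, and is given as a description. In Cl19 9 of the 42 genes had an r of 0.8 or more, *Kif3b* (0.96), *Dnai1* (0.96), *Spag8* (0.93), *Dnal4* (0.91), *Spag1* (0.89), *Dnali1* (0.88), *Tekt2* (0.86), *Rfx3* (0.85) and *Ift57* (0.84), and 12.9% of all other tested probes did. In 3c3 2 of the 42 did, *Spag9* (0.94) and *Spag8* (0.82), and 9.19% of all tested probes. Only *Spag8* reached 0.8 in both lines, as 5.31% of all tested probes did, while *Dnai1* had an r of 0.77 in 3c3. The median r was 0.39 over the 42 genes and -0.24 over all probes in Cl19, and -0.35 and -0.21 in 3c3. Opposite courses were seen too, with an r of -0.93 for *Ift74* in 3c3 and -0.89 for *Dnah17* in Cl19. An r of -0.8 or less was found for 3 of the 42 genes in Cl19, beside 19.3% of all tested probes. In 3c3 it was found for 3 of the 42, beside 7.62%.

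Day by day, members moved at different steps. Shares of all probes given for these steps, in either line, are those of the fit with the filter and all arrays. For the alternative fits and the unadjusted p-values no share is given, so those counts are a description only. Between d0 and d2 in Cl19, 4 genes rose (*Dnah1*, *Dnai1*, *Tekt2* and *Dnal4*), beside 11.2% of all probes, and 6 fell, beside 11.5%. Without the array of replicate 1, 7 rose, with *Kif3b*, *Spag1* and *Spag8* added, whereas none rose without Cl19 replicate 2 or without Cl19 replicate 3 on all days. That array held the lowest d2 level of *Foxj1*, *Dnai1* (2.28), *Dnah1* (4.44), *Tekt2* (4.60) and *Spag1* (4.28). Between d2 and d4 in Cl19, 7 genes rose (9.34% of all probes), among them *Ift57* by 1.96 (SE 0.30, adjusted p = 0.00019) and *Rfx3* by 1.15 (SE 0.20, adjusted p = 0.00043). Without that array only these 2 rose, and with the slide as a block 11 did. By limma none fell at this step (11.3% of all probes), 3 at an unadjusted p below 0.05. Between d4 and d6 in Cl19, *Tekt1* rose by 0.97 (SE 0.25, adjusted p = 0.024; 3.44% of all probes rose) and *Spag5* fell by 0.90 (SE 0.23, adjusted p = 0.020; 3.51% of all probes fell).

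In 3c3, 5 genes rose between d0 and d2 (9.8% of all probes), *Rfx6*, *Dnai1*, *Dnah1*, *Spag8* and *Rfx5*, and 6 fell (9.27%), among them *Spag4*, *Ift57*, *Bbs12*, *Ift122* and *Ift74*. The calls of *Dnai1*, *Rfx6* and *Spag8* were lost under normexp and with the floor, and that of *Dnai1* without any 1 of the 3c3 replicates. Leaving out 3c3 replicate 3 left 1 riser and 1 faller, and leaving out 3c3 replicate 2 left 1 and 3. Between d2 and d4 by limma none rose (4.33% of all probes), 4 at an unadjusted p below 0.05, and 2 fell (4.39%), among them *Dnah1*. Between d4 and d6 *Dnai1* was called higher (adjusted p = 0.0066; 5.91% of all probes rose), from a d4 level well above background on 0 of 3 arrays, and this call was lost under normexp, with the floor and without 3c3 replicate 2 or 3. At this step *Rfx6*, *Dnali1*, *Bbs1*, *Spag5* and *Arl13b* were called lower (4.58%), and with the slide as a block 9 genes were. The calls of *Rfx6* and *Dnali1*, which were well above background on 0 and 1 of 3 d6 arrays, were lost under normexp and with the floor. Without 3c3 replicate 2 only *Bbs1* was lower, and without 3c3 replicate 3 only *Bbs1* and *Rfx6*.

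Genes of the cilium outside the name rule were counted from lists written from general knowledge. Of 60 further genes of motile cilia and multiciliation, 39 were found on the array and 23 passed the filter, of which 11 rose and 6 fell in Cl19 and 5 rose and 8 fell in 3c3, with median changes of 0.64 and -0.36. Over all tested probes 22.0% rose and 30.3% fell in Cl19 and 19.7% rose and 28.6% fell in 3c3, with medians of -0.20 and -0.21, beside which the counts of both lists are to be read. Past the threshold in both lines, the largest rises were those of *Tppp3*, a tubulin-binding protein, by 1.12 and 5.40, and of *Nme7*, by 2.28 and 1.60, and the largest falls those of *Efhb* (-2.30 and -2.18) and *Mns1* (-1.43 and -2.76). *Ccno*, a multiciliation gene picked out here after its values were seen, rose by 4.04 in Cl19 (adjusted p = 0.00012) and changed by 0.26 in 3c3 (adjusted p = 0.80). It and *Tppp3* are the only tested genes of 9 multiciliated cell markers other than *Foxj1*, of which 3 were found on the array. Of 69 further genes of the primary cilium, transport and the transition zone, 58 were found and 48 passed, of which 12 rose and 11 fell in Cl19 and 3 rose and 25 fell in 3c3, with median changes of -0.19 and -0.64. The largest changes past the threshold in both lines were the rises of *Nek8* (2.57 and 1.85) and *Fuz* (0.84 and 1.00) and the falls of *Evc* (-4.53 and -1.23) and *Traf3ip1* (-1.56 and -1.84). All 7 epithelial markers rose in both lines, with a mean level of 11.08 to 11.29 on d0 and 14.37 to 14.61 on d6 in Cl19 and of 10.79 to 11.15 and 14.16 to 14.47 in 3c3; their part in the changes of the ciliary genes was not tested.

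On the Prim arrays, which were scanned on a day of their own and enter no test here, 26 of the 63 genes were well above background on both. Of all gene features, 43.6 and 44.5% were well above background on these arrays, so the count is a description only. *Foxj1* was 3.57 and 2.79 and on neither array well above background, and *Dnai1* (0.34 and 0.32), *Spag8* (1.43 and 1.17), *Tekt1* (0.29 and 0.29) and *Rfx3* (0.77 and 0.63) were not either. In contrast *Dnai2* was 7.46 and 7.55, *Dnal4* 10.97 and 10.93, *Tekt4* 5.97 and 5.27, and *Bbs1* 8.27 and 8.52, all higher than on any rMAPC array.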

How the data were processed

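RNA of 24 rMAPC and 2 Prim samples was measured on Agilent 1-color arrays, each sample on an array of its own. Per the file headers the authors scanned the arrays with Agilent Feature Extraction 10.1.1.1, which gave for each feature an intensity corrected for background. The deposited log2 values of the series are the log2 of that intensity, without normalization between arrays, and probe positions are those of the file headers (rn4). Groups came from the sample labels.

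Here the log2 intensity was quantile normalized over the 26 arrays. Control and outlier features were left out, and repeated features of a probe were averaged. A probe entered the tests where all arrays of some group called it well above background, which left 24442 of 41012 probes. A single limma fit over the 9 groups (limma 3.58.1, R 4.3.3) gave F-tests over days, differences between days and between lines, and Benjamini-Hochberg adjusted p-values over all tested probes, with a threshold of 0.05. The fit was tested on simulated data. Tables were made with Python 3.11.15. A probe dim on any array of d0 or d6 has only a bound ("at least"): the mean of the brighter group against, per array, the higher of the probe's own signal and the lowest signal well above background. A dim array of the brighter group entered that mean with its own signal. The value is then no strict bound and is called estimated, as for *Dnai1*, *Spag8* and *Rfx5* in 3c3 and *Rfx6* in Cl19.

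The genes, roles and gene lists were chosen with earlier results of these data known. Named are *Foxj1*, all Rfx genes, genes past the threshold in the same direction in both lines or different between the lines, the largest rise and fall of each role, and those alike to *Foxj1*. Others are named where a count is 5 or fewer or a description needed them, after their values were seen.

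The replicate number of a line marks its slide, per the file headers. Deviations of same-numbered d0 and d6 arrays from their group means correlated in 6 of 6 pairs (0.11 to 0.50), and the lowest correlation of any pair of days was 0.06. The slide was used as a block in an alternative fit. The other alternatives were 75th percentile scaling, normexp background correction with offset 50, the deposited log2 table, no filter, a floor, a fit per line, the mean over probes, the methods' t-test and area method, and leaving out arrays. Promoters were read from RefSeq (GRCr8). No genome sequence was used here, and some genes of the counts are not reported by name.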

Additional observations from a re-analysis of the deposited data

Results flagged for a closer look

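For 12 genes the change from d0 to d6 differed between the lines by limma's test of the difference itself, and the values are changes in Cl19 minus those in 3c3 on the log2 scale. The difference was 3.52 for *Dnali1*, 2.38 for *Dnal4*, 2.13 for *Spag1*, 2.08 for *Ift57*, 1.77 for *Tekt1* and 1.52 for *Ift122*. It was 1.46 for *Rfx3*, 1.32 for *Bbs1*, 1.04 for *Bbs5*, 0.80 for *Arl13b*, 0.67 for *Kif3b* and -0.44 for *Ift20*. The lines were scanned on different days, and the part of the scan day in these differences was not tested.

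The threshold was missed under some alternatives by 6 of the 12. *Ift20* had adjusted p-values up to 0.22 and *Spag1* up to 0.24 when a replicate was left out. *Arl13b* had 0.16 without 3c3 replicate 3, *Bbs5* 0.078 without 3c3 replicate 2 and *Kif3b* 0.17 as the mean over its probes. *Dnali1* had a difference of 1.61 with an adjusted p of 0.11 when dim values were set to a floor.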

How the results depend on the processing

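Among 1288 alternative values of single genes, 1157 kept direction and side of the threshold, 75 lost the threshold, 26 gained it and 30 reversed. The counts from d0 to d6 in Cl19 (15 higher, 10 lower) stayed within 1.5 times under all alternatives run. The cause of the changes below was not tested.

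Counts in this section stand without the share of all probes called under the same alternative. A change in a count can thus not be told apart from a method that calls fewer or more probes of any kind. The area method called 8 genes over time in Cl19 and 5 in 3c3. The methods' t-test, adjusted, gave 12 higher and 9 lower in Cl19 and 4 and 7 in 3c3 on d6. At its unadjusted limit, added after seeing the data, it gave 14 and 11, and 5 and 11. Normexp left 2 higher on d6 in 3c3, and the log2 table gave 7 lower there. Without the array of Cl19 d2 replicate 1, 23 genes changed over time in 3c3. The median change over all tested probes was -0.06 in each line under normexp.

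For steps in Cl19, genes higher from d0 to d2 (4) numbered 7 on the log2 table and 7 without the array of d2 replicate 1, and genes lower (6) 3 on the log2 table. From d2 to d4, genes higher (7) numbered 11 with the replicate block, 4 in a fit per line and 2 without that array, and genes lower (0) 3 with the block, 2 under normexp and 1 on the log2 table, under 75th percentile scaling, as means over probes and without that array. From d4 to d6, genes higher (1) numbered 7 under normexp, 3 with the block, 3 as means, 2 without that array and 0 on the log2 table, and genes lower (1) 2 on the log2 table, 2 under percentile scaling and 0 in a fit per line. For 3c3, genes higher from d0 to d2 (5) numbered 2 under normexp, 3 under percentile scaling and 2 with the floor, and genes lower (6) 2 on the log2 table. From d2 to d4, genes higher (0) numbered 1 under percentile scaling, in a fit per line and without the Cl19 array, and genes lower (2) 5 with the block, 1 under normexp, with the floor and without the filter, and 0 on the log2 table, in a fit per line and as means. From d4 to d6, genes higher (1) numbered 2 with the block, 2 in a fit per line and 0 under normexp and with the floor, and genes lower (5) 9 with the block, 3 in a fit per line and 3 with the floor.

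Leaving out a replicate of a line gave 10 to 22 genes changed over time in 3c3, 10 without 3c3 replicate 3 and 13 without 3c3 replicate 2. For Cl19 it gave 0 to 5 higher and 3 to 5 lower from d0 to d2 (0 and 3 without Cl19 replicate 2 or 3), 3 to 6 higher and 0 to 1 lower from d2 to d4 (3 higher without Cl19 replicate 1), and 0 to 3 higher and 0 to 1 lower from d4 to d6 (none of either without Cl19 replicate 1). For 3c3 it gave 1 to 5 higher and 1 to 6 lower from d0 to d2, 0 to 1 higher and 0 to 2 lower from d2 to d4 (none lower without 3c3 replicate 2 or 3), and 0 to 2 higher and 1 to 6 lower from d4 to d6 (0 and 1 without 3c3 replicate 2).

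Changes that reversed were, on the log2 table, *Bbs2* 0.30, *Dnal4* 0.20 and *Rfx3* 0.23 in 3c3 and *Rfx1* 0.31, *Rfx2* 0.20, *Rfx7* 0.019, *Rsph1* 0.15 and *Tekt4* 0.22 in Cl19. As means over probes they were *Kif3b* -0.59 in 3c3 and the line difference of *Dnah17* (0.39). With the floor they were *Dnali1* 0.18, *Rfx2* 0.063 and *Rfx6* 0.16 in 3c3 and the line differences of *Rfx2* (-0.37) and *Tekt4* (-0.010). Under percentile scaling they were *Ift20* -0.30 and *Kif3b* -0.23 in 3c3. Under normexp they were *Ift20* -0.0039, *Kif3b* -0.011 and *Rfx6* 0.0042 in 3c3 and *Rfx2* 4.7e-05 in Cl19. Without a replicate the 3c3 changes ranged from -0.12 to 0.081 for *Bbs2*, -0.40 to 0.13 for *Dnal4*, -0.028 to 0.059 for *Ift20*, -0.0081 to 0.067 for *Kif3b*, -1.05 to 0.40 for *Rfx6* and -0.28 to 0.45 for *Spag1*. The Cl19 change of *Rfx5* ranged from -0.12 to 0.35 and the line difference of *Spag5* from -0.34 to 0.30. Levels near the lowest signal well above background (1.52 to 4.20) are measured with limited precision.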
